A study of Mus musculus with 45 samples.

Results

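The 7 genes described here encode the parts of the MHC class II antigen presentation pathway: H2-Aa and H2-Ab1, the alpha and beta chains of the I-A molecule, H2-Eb1, the beta chain of I-E, Cd74, the invariant chain, Ciita, the class II transactivator, and H2-DMa and H2-DMb1, the chains of the peptide editor H2-DM. They were taken by name as the classical class II chains, their chaperone, their regulator and their editor, and are 7 of the 23420 genes with a row in each file. All 7 passed the filter on low counts, which left 10287 genes. Class II molecules are built in the endoplasmic reticulum on the invariant chain, which fills the peptide groove and leads them to endosomes, where proteases cut the chain down to a fragment called CLIP. H2-DM then exchanges CLIP for peptides, and the loaded molecules are shown on the surface to CD4+ T cells. CIITA binds no DNA itself but joins factors held on a shared set of promoter boxes, and in dendritic cells maturing stimuli are known to change both its transcription and the life span of surface class II.

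RNA had been sequenced from 45 libraries of C57BL/6 bone marrow-derived dendritic cells grown in 20 ng/ml GM-CSF and sorted live as CD11c-high cells. They fall into 9 groups of 5 biological replicates. KO cells, labelled Bat3 fl/fl CD11c Cre, were given 4µ8C, 4PBA or LPS or kept in medium for 8 h, and WT cells, labelled wild type, were given 4µ8C, 4PBA, Rapamycin or LPS or kept in medium. Bat3 is an older name of Bag6, a cytosolic chaperone gene, and the CD11c promoter limits the Cre recombinase to cells that have switched on CD11c. LPS, a bacterial cell wall lipid, acts through the receptor TLR4, 4µ8C blocks the RNase of the stress sensor IRE1, 4PBA is 4-phenylbutyrate, a chemical chaperone and histone deacetylase inhibitor, and rapamycin inhibits the kinase complex mTORC1. The labels do not state whether LPS was added with 4µ8C, 4PBA or Rapamycin, so each of these groups is set against both medium and LPS, and comparisons that share a medium or LPS group are not independent of each other.

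Library totals lay between 1509219 and 4737736 expected counts, and those of the 7 genes from 13 for Ciita in its lowest library to 9250 for Cd74 in its highest. Itgax, which encodes CD11c, was present in all 45 libraries at 9.09 to 126.7 TPM (a level per transcript length, scaled to 1 total in every library). The summed level of 7 dendritic cell markers ran from 148.1 to 791 TPM, with Ccr7 at 36.7 to 660.9 TPM, while Flt3 reached at most 1.59 TPM and Cd209a had counts in 3 of 45 libraries. The summed level of 9 macrophage and monocyte markers ran from 5029 to 9617 TPM, with Ly6c2 at 3036 to 6491 TPM. B cells also carry class II, but their 5 markers summed to at most 1.21 TPM, with Pax5 at 0 in every library. In bulk samples of this kind, fewer cells of a type and less RNA per cell cannot be told apart. Bag6, the targeted gene, averaged 9.22 ± 2.83 CPM in KO medium and 14.4 ± 2.16 CPM in WT medium (SD, n = 5 each; CPM, a rate adjusted by TMM, corrects for depth but not for gene length), and the difference did not pass the test (log2 fold change -0.65, SE 0.23, edgeR adjusted p = 0.072). The libraries labelled KO replicate 4 held more Bag6 than any other library of their group under all 4 treatments, at 12.4 to 14.9 CPM. In medium the value was 13.7 CPM, within the WT medium range of 11.8 to 16.7 CPM, while the other 4 KO medium libraries read 5.85 to 8.96 CPM. These libraries are kept as KO by their label. Without them Bag6 passed the test between KO and WT in medium (-0.86, edgeR adjusted p = 0.0057), after LPS (-0.79, edgeR adjusted p = 0.028) and with 4PBA (-1.21, edgeR adjusted p = 0.0031), but not with 4µ8C (-0.59, edgeR adjusted p = 0.29). Because they hold the highest Bag6 of their KO groups, leaving them out lowers KO Bag6 by construction. These p-values are therefore no independent evidence of a lower Bag6 in KO cells.

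Promoter stretches are shown because class II genes are known for a common promoter layout, an X box followed by a Y box, on which RFX, CREB and NF-Y factors gather. The stretches come from the RefSeq promoter table of GRCm38.p6, in which 4 of the 7 genes have an entry that is used here, and run 5′ to 3′ on the gene's own strand. Capitals mark the X box core AACNGATG or, in H2-Aa, the CREB motif TGACGTCA, and after it the Y box ATTGG. The stretch of H2-Aa is chr17:34287852-34287922 on the minus strand, and those of H2-Eb1, H2-DMb1 and H2-DMb2, a second H2-DM beta gene, are chr17:34305753-34305827, chr17:34153074-34153149 and chr17:34145103-34145178 on the plus strand.
H2-Aa: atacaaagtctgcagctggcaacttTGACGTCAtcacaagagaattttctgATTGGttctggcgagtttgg
H2-Eb1: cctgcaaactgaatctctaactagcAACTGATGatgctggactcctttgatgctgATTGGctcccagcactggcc
H2-DMb1: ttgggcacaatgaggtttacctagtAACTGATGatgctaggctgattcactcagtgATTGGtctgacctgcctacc
H2-DMb2: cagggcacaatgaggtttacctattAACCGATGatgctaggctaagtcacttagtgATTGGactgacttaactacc

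The X box core and the Y box lay 22 bases apart in H2-Eb1 and 23 in both H2-DM beta genes, and in H2-Aa the CREB motif and the Y box lay 18 bases apart. Searched on both strands in the table's 32851 promoters, each 300 bases long, the X box core was in 2.32%, the Y box in 37.4% and the CREB motif in 1.79%. An X box core followed by a Y box within 10 to 30 bases was in 7 promoters, or 0.0213%. They belong to H2-Eb1, H2-Eb2, H2-DMb1, H2-DMb2, H2-M10.4, BC051142 and Gm35697. Of the 2 promoter entries for H2-DMa, 1 held none of these motifs and the other held ATTGG alone. H2-Ab1, Cd74 and Ciita are named only.

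Per transcript length, H2-Ab1 was the most abundant of the 7 genes and Ciita the least. Over all 45 libraries the mean level was 1871 ± 493.7 TPM for H2-Ab1, 1495 ± 483.4 for Cd74, 887.6 ± 291.7 for H2-Aa and 347.7 ± 120.1 for H2-Eb1 (SD). The H2-DM chains were lower, H2-DMa at 136.9 ± 48.3 TPM and H2-DMb1 at 126.4 ± 24.0 TPM, and Ciita averaged 6.28 ± 2.70 TPM. The alpha chain H2-Aa stood at 0.476 ± 0.108 of H2-Ab1 over the 45 libraries. C57BL/6 mice lack a working H2-Ea and so display no I-E, and the H2-Ea-ps row held 1 count in 1 of 45 libraries, while H2-Eb1, the partner chain, was read at 93.4 to 596.1 TPM. H2-DMb1 values are uncertain, because its annotated transcripts share 31.4% of their 31-base words with H2-DMb2 and its expected counts were not whole in any of the 45 libraries.

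The order of the groups differed between genes. H2-Ab1 was highest in WT LPS, at 1742 ± 302.2 CPM, followed by KO 4µ8C, WT 4µ8C and KO LPS, and lowest in WT Rapamycin, at 685.3 ± 143.8 CPM (SD, n = 5 each). H2-Aa, H2-Eb1, Cd74 and Ciita were also lowest in WT Rapamycin by group mean, and so was H2-DMb1. H2-DMa alone had its highest group mean there, 202.8 ± 36.2 CPM, and its lowest, 113.6 ± 30.8 CPM, in KO 4µ8C. Of 56 steps between neighbouring group means, 55 were smaller than the larger SD of the pair, and the exception was the step down to WT Rapamycin in H2-Ab1.

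**Figure D1:**
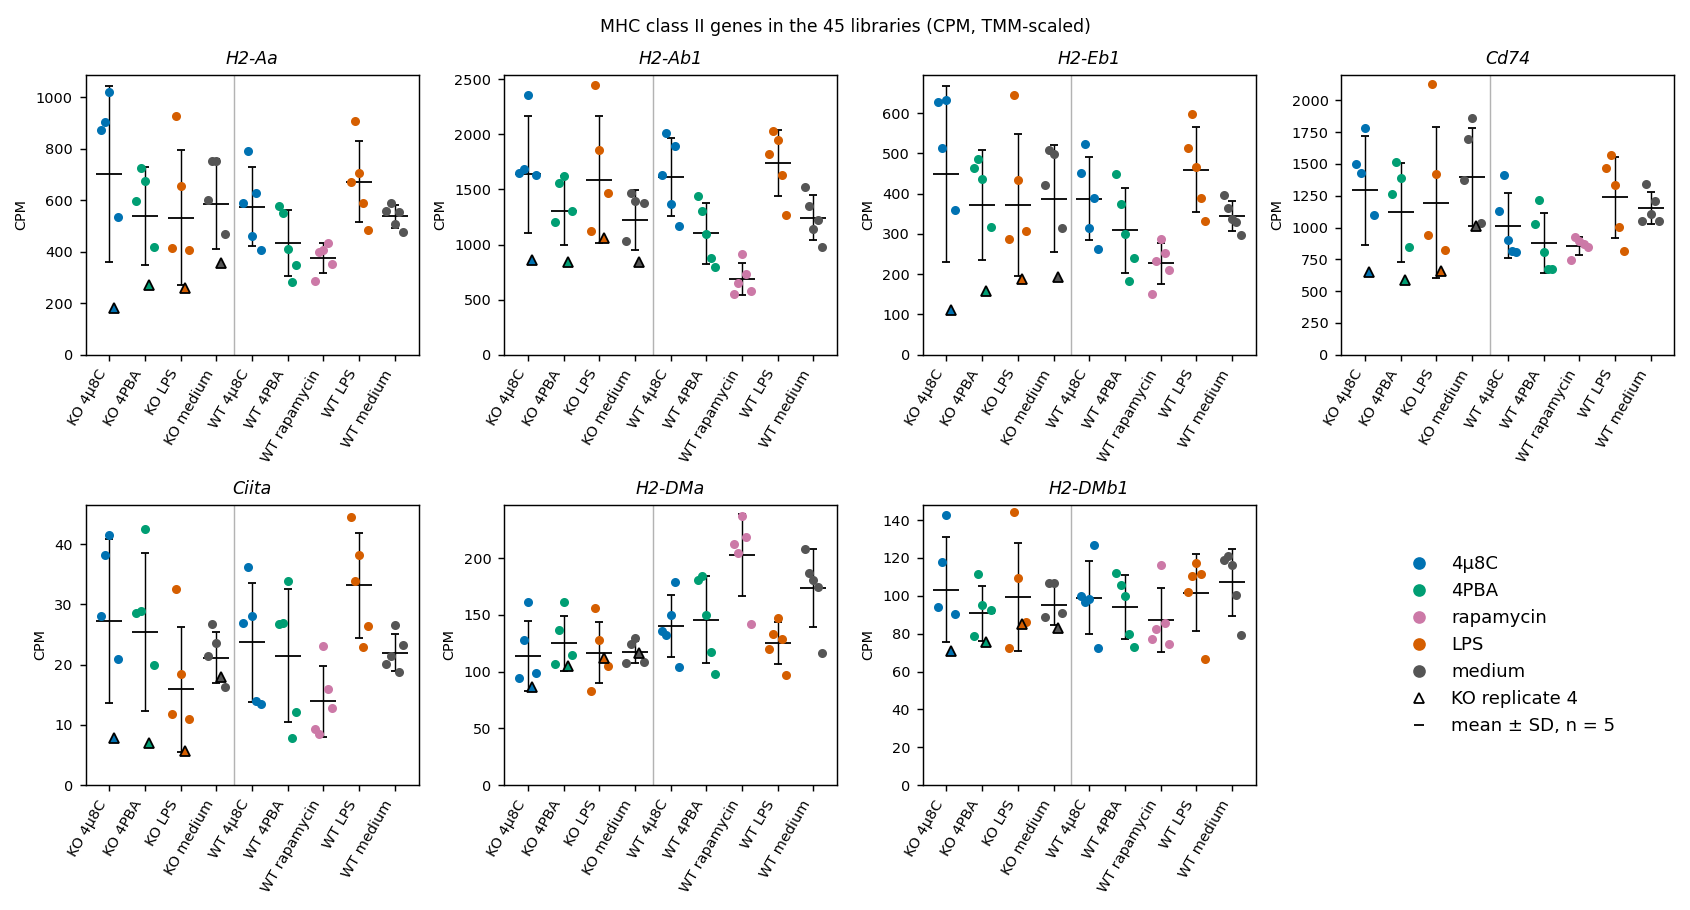
Level of each gene (CPM, linear axis from 0) in the 45 libraries, with KO groups left of WT groups, each point 1 library, triangles KO replicate 4, and black marks mean ± SD of 5. In H2-Ab1 the WT Rapamycin libraries lie between 553 and 911 CPM, below all WT medium libraries, and in H2-DMa 4 of them lie between 204.8 and 237.3 CPM.

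Between KO and WT cells 1 of the 7 genes passed the test, the editor chain H2-DMa in medium, and 0 passed in the other 3 treatments. In medium, H2-DMa read 107.7, 124, 129.2, 116.4 and 108.8 CPM in the KO libraries and 208.2, 187.1, 180.6, 174.6 and 116.4 CPM in the WT libraries. It fell to 117.2 ± 9.37 CPM in KO medium, against 173.4 ± 34.3 CPM in WT medium (log2 fold change -0.56, SE 0.18, edgeR adjusted p = 0.031). Of the KO libraries 3 lay below all WT libraries, and WT replicate 5 lay among the KO libraries. It was 1 of 7 genes called, where 8.92% of all tested genes were. Each library's label ends in a letter and a number. The labels do not say what this code is, and reading it as a place on a plate is an assumption. Codes with letter A, or number 1 or 12, are called edge codes here. All WT medium libraries but no KO medium library had an edge code. With that difference as a term over all groups the change was -0.34 (edgeR adjusted p = 0.67), and without KO replicate 4 it was -0.57 (edgeR adjusted p = 0.057), so the call did not hold in either. It was also lost on leaving out any 1 of WT_medium replicates 1, 2, 3 and 4 or KO_medium replicates 1, 4 and 5, with log2 fold changes from -0.56 to -0.49 (edgeR adjusted p from 0.053 to 0.11).

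The chains themselves did not pass in medium. H2-Ab1 averaged 1224 ± 271.7 CPM in KO and 1243 ± 206.2 CPM in WT, and Cd74 averaged 1396 ± 382.3 CPM in KO and 1153 ± 122.6 CPM in WT (SD, n = 5 each). The 95% intervals of their log2 fold changes, -0.47 to 0.42 for H2-Ab1 and -0.26 to 0.81 for Cd74, leave room for a change in either direction. In medium the SD of H2-Aa was 174.6 CPM in KO and 44.5 CPM in WT, whereas that of H2-DMb1 was 10.9 CPM in KO and 17.7 CPM in WT.

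After LPS 0 of the 7 genes passed between genotypes (6.06% of all genes did; 1 of the 7, and 1815 genes in all, had an unadjusted p under 0.05, and DESeq2 also called 0 of the 7). The difference with that p was in Ciita, at 11.8, 32.6, 18.5, 5.68 and 10.9 CPM in KO LPS and 44.6, 33.9, 38.2, 22.9 and 26.4 CPM in WT LPS. KO replicate 2 lay among the WT libraries and the other 4 lay below all of them. The log2 fold change was -1.05 (SE 0.42, 95% interval -1.90 to -0.21, edgeR adjusted p = 0.15), and without KO_LPS replicate 2 it was -1.45 (edgeR adjusted p = 0.045). That library held the highest Ciita of KO LPS, so leaving it out widens the difference by construction and is no independent evidence of lower Ciita. All WT LPS libraries but only 1 KO LPS library had an edge code, and with that as a term 161 genes in all were called in place of 623. The chains that CIITA is known to drive read lower by less in the same libraries, with log2 fold changes of -0.33 for H2-Aa, -0.13 for H2-Ab1, -0.31 for H2-Eb1 and -0.05 for Cd74, none past the test.

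With 4µ8C and with 4PBA 0 of the 7 genes passed between KO and WT (0.953% and 0.496% of all genes did). At an unadjusted p under 0.05 the count was also 0 of 7 in both, and DESeq2 called 0. H2-DMa read 113.6 ± 30.8 CPM in KO 4µ8C and 140 ± 27.2 CPM in WT 4µ8C, and 124.8 ± 24.1 CPM in KO 4PBA and 145.8 ± 38.2 CPM in WT 4PBA (SD, n = 5 each). In each of the 4 genotype comparisons H2-DMa had a negative log2 fold change, between -0.56 and -0.10, and the KO groups and WT groups overlapped in all 4.

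Bag6 and 5 of the 7 genes, the I-A, I-E and H2-DM chains, lie on chromosome 17, with 76 RefSeq genes between H2-Eb1 and Bag6 and 87 between H2-DMa and Bag6. Between H2-DMa and Bag6 31 other genes were tested, and of these 1 was called between KO and WT in medium (3.23%, beside 10.8% of the 483 genes tested on the rest of chromosome 17), and 0 in the other 3 treatments (beside 7.66% after LPS and 2.28% with each of 4µ8C and 4PBA). That gene, Rnf5, is named after its values were seen. Of the 9767 tested genes not placed on chromosome 17, 8.85% were called in medium, 6% after LPS, 0.891% with 4µ8C and 0.41% with 4PBA.

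In WT cells LPS changed 1 of the 7 genes past the test, H2-DMa. H2-DMa read 120.2, 133.1, 147.6, 128.2 and 97.3 CPM in WT LPS and fell to 125.3 ± 18.6 CPM there, against 173.4 ± 34.3 CPM in WT medium (log2 fold change -0.47, SE 0.18, edgeR adjusted p = 0.029). The groups overlapped through WT medium replicate 5. It was 1 of 7 genes called, where 40.1% of all genes were, and the call was lost without any 1 of WT_medium replicates 1, 2 and 3 and WT_LPS replicates 1 and 5 (log2 fold changes from -0.46 to -0.39, edgeR adjusted p from 0.052 to 0.093). H2-Ab1 read 1742 ± 302.2 CPM in WT LPS and 1243 ± 206.2 CPM in WT medium, with 4 of 5 LPS libraries above every medium library (log2 fold change 0.49, 95% interval 0.04 to 0.93, edgeR adjusted p = 0.076), and without WT_LPS replicate 5 it passed at 0.58 (edgeR adjusted p = 0.043). Ciita averaged 33.2 ± 8.79 CPM in WT LPS and 22 ± 3.07 CPM in WT medium (log2 fold change 0.57, SE 0.40, edgeR adjusted p = 0.26). Scaling by library totals in place of TMM factors moved the median of all genes by -0.30 in this comparison, so that only differences relative to that shift can be compared between scalings.

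In KO cells 0 of 7 genes passed for LPS against medium (35.2% of all genes did; 0 of 7 had an unadjusted p under 0.05, and DESeq2 called 0). H2-Ab1 averaged 1590 ± 576.9 CPM in KO LPS and 1224 ± 271.7 CPM in KO medium. Replicate numbers paired the libraries in this comparison, and with the number as a block H2-Ab1 passed as the 1 gene of 7 (log2 fold change 0.35, edgeR adjusted p = 0.027; 39.2% of all genes passed). It was higher in KO LPS in 5 of 5 pairs, by 0.09 to 0.74 on the log2 scale. H2-Aa was higher in 1 of 5 pairs, and H2-DMa read 116.7 ± 27.1 CPM in KO LPS and 117.2 ± 9.37 CPM in KO medium.

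In the comparisons of the 4µ8C groups 0 of the 7 genes passed, whether set against medium or against LPS. Far fewer of all genes were called against LPS than against medium. As the labels do not state whether LPS was added, a difference from medium cannot be ascribed to 4µ8C alone. Against medium 0 of 7 genes passed in WT cells (40.1% of all genes did) and 0 in KO cells (32.7%), with 0 at an unadjusted p under 0.05 in either and 0 by DESeq2. H2-Ab1 averaged 1636 ± 528.3 CPM in KO 4µ8C and 1224 ± 271.7 CPM in KO medium. Blocked by replicate number this difference passed, again the 1 gene of 7 (log2 fold change 0.39, edgeR adjusted p = 0.013; 36.4% of all genes), and it was positive in 5 of 5 pairs. Without KO_4µ8C replicate 4 it passed with no block (0.58, edgeR adjusted p = 0.035). In WT cells H2-DMa passed without WT_medium replicate 5 (-0.43, edgeR adjusted p = 0.048). Against LPS 0 of 7 passed in WT cells (0.204% of all genes did) and in KO cells (0.0292%), and blocked by number in KO cells 0 of 7 passed as well (0.126%). Ciita came nearest, at 27.3 ± 13.6 CPM in KO 4µ8C and 15.9 ± 10.4 CPM in KO LPS, higher in 5 of 5 pairs by 0.23 to 1.21 on the log2 scale, and the edgeR adjusted p was 0.67 without the block.

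In WT cells H2-Ab1 was lower with 4PBA than with LPS. H2-Ab1 read 1443, 1303, 1091, 874 and 792.5 CPM in WT 4PBA and 1824, 2034, 1944, 1635 and 1272 CPM in WT LPS. It fell to 1101 ± 275.9 CPM in WT 4PBA, against 1742 ± 302.2 CPM in WT LPS (log2 fold change -0.66, SE 0.22, edgeR adjusted p = 0.022), 1 of 7 genes called where 27% of all genes were. Of the 4PBA libraries 3 lay below every LPS library. Replicate numbers paired these libraries, and with the block 5 of 7 genes passed (31.1% of all genes did), adding H2-Aa at -0.63 (edgeR adjusted p = 0.0047), H2-Eb1 at -0.58 (0.021), Cd74 at -0.50 (0.0026) and Ciita at -0.71 (0.046). All 5 genes were lower in WT 4PBA in 5 of 5 pairs. They moved together from library to library and so are not 5 separate results, and the share of all genes lower in 5 of 5 pairs was not counted. All WT 4PBA libraries lacked an edge code and all WT LPS libraries had one, and with that as a term H2-Ab1 differed by -0.44 (edgeR adjusted p = 0.31). With the block and the edge code together 3 of 7 genes passed, H2-Ab1 at -0.51 (edgeR adjusted p = 0.023), Cd74 at -0.55 (0.018) and H2-DMa at 0.40 (0.033), and H2-Aa, H2-Eb1 and Ciita did not. Its call was also lost without WT_LPS replicate 2 or WT_4PBA replicates 4 or 5, with changes from -0.60 to -0.57 (edgeR adjusted p from 0.056 to 0.073). With library totals as the scaling it was -0.40 (edgeR adjusted p = 0.15), and there H2-DMa passed instead, at 0.48.

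Against medium, 4PBA gave 0 of 7 calls in WT cells (43.7% of all genes) and 0 in KO cells (33.2%), with 0 at an unadjusted p under 0.05 and 0 by DESeq2. Blocked by number, the invariant chain Cd74 passed in both genotypes as the 1 gene of 7. It averaged 1121 ± 388.8 CPM in KO 4PBA and 1396 ± 382.3 CPM in KO medium (blocked log2 fold change -0.36, edgeR adjusted p = 0.023; 37.6% of all genes passed). In WT cells it averaged 878.6 ± 236.6 CPM in 4PBA and 1153 ± 122.6 CPM in medium (blocked log2 fold change -0.43, edgeR adjusted p = 0.0056; 47.9% of all genes). All WT medium libraries had an edge code and no WT 4PBA library did, and with both the block and the edge code as terms Cd74 differed by -0.48 (edgeR adjusted p = 0.024). Cd74 was lower in 4PBA in 5 of 5 pairs in each genotype. For 4PBA against LPS in KO cells 0 of 7 passed, without the block (24.4% of all genes) or with it (29.1%).

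Rapamycin libraries, which exist for WT cells only, had the lowest group mean of H2-Ab1. H2-Ab1 read 553, 648, 911, 733 and 582 CPM in WT Rapamycin and 1524, 1352, 1141, 1218 and 982 CPM in WT medium. It fell to 685.3 ± 143.8 CPM in WT Rapamycin, against 1243 ± 206.2 CPM in WT medium (log2 fold change -0.86, SE 0.22, edgeR adjusted p = 0.0032), and no Rapamycin library reached any medium library. This was 1 of 7 genes called, where 23.2% of all genes were, and it was called in each of the 10 fits that left out 1 library. H2-Aa, H2-Eb1 and Cd74 did not overlap between the groups either, with H2-Aa at 375.7 ± 58.0 CPM in Rapamycin and 537.3 ± 44.5 CPM in medium, but none of them passed (edgeR adjusted p between 0.21 and 0.27). The share of all genes without overlap between these groups was not counted, so the lack of overlap has no yardstick here. The 2 Rapamycin libraries with an edge code, as all WT medium libraries have, read 911 and 733 CPM in H2-Ab1, also below all of medium.

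Set against LPS, 5 of 7 genes passed for Rapamycin, where 56.3% of all genes did. H2-Ab1 averaged 685.3 ± 143.8 CPM in WT Rapamycin and 1742 ± 302.2 CPM in WT LPS (log2 fold change -1.35, SE 0.225, edgeR adjusted p = 2.4e-06), 2.54-fold lower. H2-Eb1 fell to 227.2 ± 51.0 CPM in Rapamycin, against 459.8 ± 104.6 CPM in LPS (-1.02, SE 0.34, edgeR adjusted p = 0.011), and H2-Aa fell by 0.84 on the log2 scale (edgeR adjusted p = 0.026), with no overlap in any of the 3 chains. How many of all genes lacked overlap between Rapamycin and LPS was not counted. Ciita read 9.34, 8.55, 23, 16 and 12.8 CPM in Rapamycin and fell to 13.9 ± 5.89 CPM there, against 33.2 ± 8.79 CPM in LPS (-1.23, SE 0.41, edgeR adjusted p = 0.011), with 4 of 5 below all LPS libraries. Cd74 did not pass (-0.53, edgeR adjusted p = 0.085), except without WT_LPS replicate 5 (-0.65, edgeR adjusted p = 0.044). The call of H2-Aa was lost without WT_LPS replicate 2 (edgeR adjusted p = 0.077) and without WT_Rapamycin replicate 1 (edgeR adjusted p = 0.065). All WT LPS libraries but only 2 WT Rapamycin libraries had an edge code, and with that as a term H2-Aa did not pass (-0.73, edgeR adjusted p = 0.083). With library totals as the scaling, which moved the median of all genes by 0.49 here, H2-Aa, H2-Eb1 and Ciita stayed lower but did not pass.

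The editor chain H2-DMa moved against the other genes. It read 212, 204.8, 237.3, 218.3 and 141.7 CPM in WT Rapamycin and 120.2, 133.1, 147.6, 128.2 and 97.3 CPM in WT LPS, and 4 of 5 Rapamycin libraries lay above all LPS libraries. It rose to 202.8 ± 36.2 CPM in Rapamycin, against 125.3 ± 18.6 CPM in LPS (log2 fold change 0.70, SE 0.18, edgeR adjusted p = 0.00074). Against medium, at 173.4 ± 34.3 CPM, it did not pass (0.23, edgeR adjusted p = 0.38). Its partner H2-DMb1 averaged 87.1 ± 16.8 CPM in Rapamycin, 101.6 ± 20.4 CPM in LPS and 107.1 ± 17.7 CPM in medium, and passed in neither comparison. Per transcript length, H2-DMa to H2-Ab1 stood at 0.203 ± 0.0373 in WT Rapamycin, 0.0489 ± 0.00422 in WT LPS and 0.0942 ± 0.00948 in WT medium (ratio of TPM, SD, n = 5 each), and the lowest Rapamycin value, 0.165, was above the highest medium value, 0.107.

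**Figure D2:**
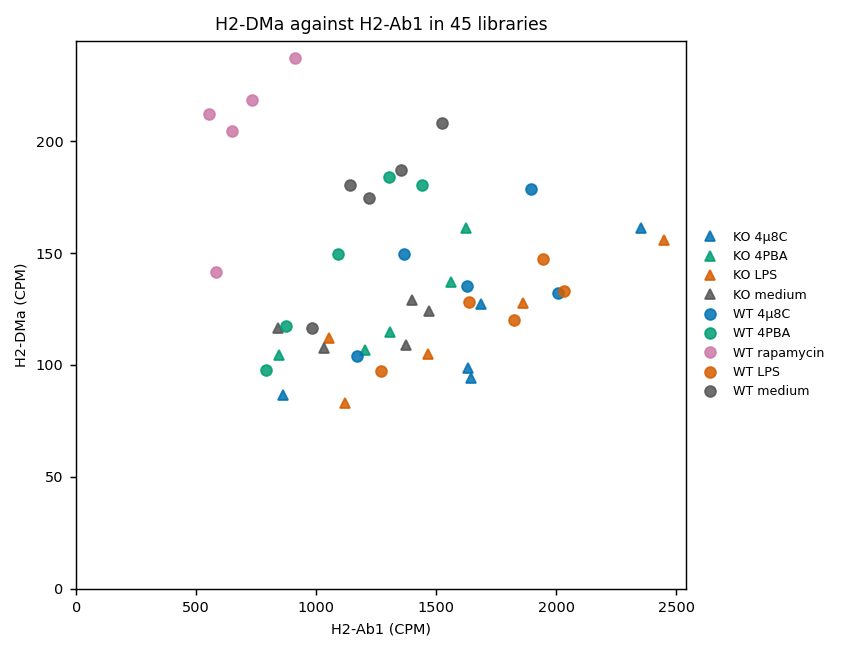
H2-DMa (CPM) against H2-Ab1 (CPM) in the 45 libraries, both axes linear from 0, with colour for treatment, triangles for KO and circles for WT. The WT Rapamycin libraries lie to the left, with H2-Ab1 between 553 and 911 CPM and H2-DMa between 141.7 and 237.3 CPM.

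The test of whether KO and WT cells respond differently called 0 of 7 genes for LPS (0.00972% of all genes were called), 4µ8C (1.79%) and 4PBA (4.73%), with 0 of 7 at an unadjusted p under 0.05 in each and 0 by DESeq2. The largest difference was that of Ciita to LPS, -0.999 on the log2 scale with a 95% interval of -2.16 to 0.17.

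**Figure D3:**
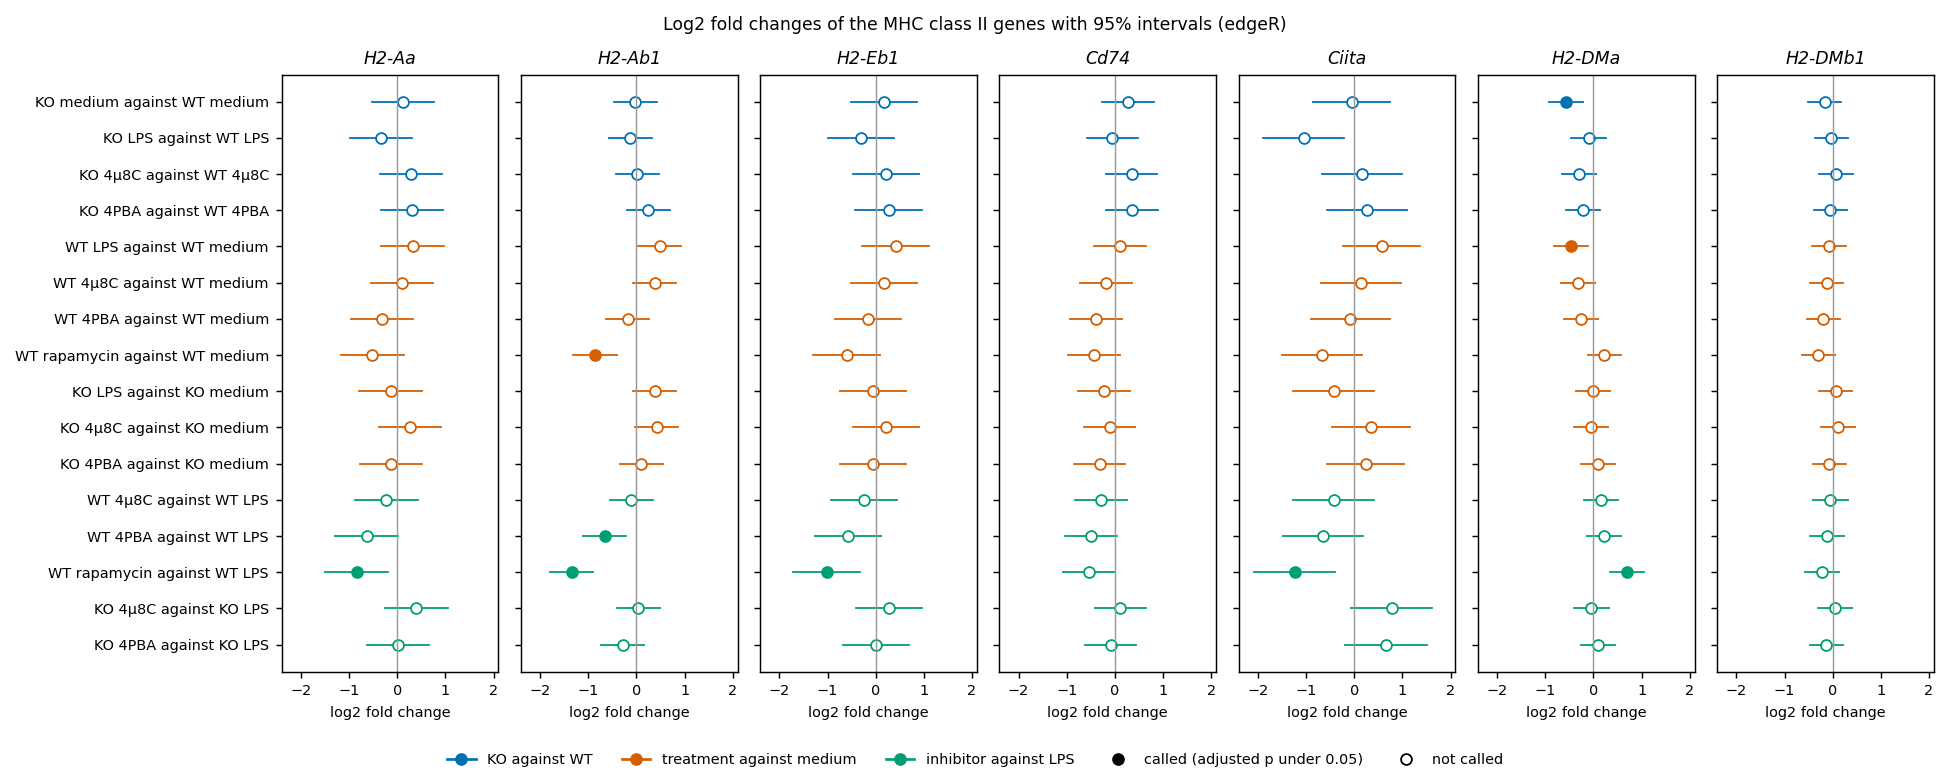
Log2 fold change (x axis) of each gene in 16 comparisons, named with the first group over the second, with 95% intervals from edgeR and filled points where the adjusted p is under 0.05. Filled points are found for H2-DMa in KO against WT medium and LPS against medium in WT cells, for H2-Ab1 in 3 comparisons of Rapamycin or 4PBA, and for 5 genes in Rapamycin against LPS.

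Within the KO groups 1 replicate stood apart. KO replicate 4 had the lowest value of its group in 24 of 28 gene and treatment combinations and lay below the group mean in 28 of 28. These values come from 4 libraries and from genes that moved together, so they are not 28 separate observations. In how many of all genes KO replicate 4 was lowest was not counted. H2-Aa read 182.1 CPM in KO 4µ8C replicate 4, against 536 to 1019 CPM in the other 4 libraries, which is 21.9% of their mean. H2-Eb1 read 21% of the mean of the others in that group, and Ciita 23.3% in KO 4PBA, while H2-DMa was nearest to them, at 72% to 99.1%. The same 4 libraries had the lowest Irf8, Cst3, Cd83 and Ccr7 of their groups under every treatment, and the highest Ctsl, Ctsb and Irf1, genes named after their values were seen. Ccr7, a marker of migrating mature dendritic cells, read 37.6% to 45.1% of the mean of the others. The macrophage and monocyte markers C1qa, at 35.8% to 54.7%, and Cd14, at 52.3% to 84.3%, were also lowest in all 4 groups, whereas the dendritic cell marker Itgax was lowest in 1 and Clec10a in 0. KO replicates 2 and 3 held the highest value of their groups in 16 and 12 of 28, and WT replicate 5 was lowest in 24 of 35. Whether these libraries differ in cell make-up, in deletion of Bag6 or in handling was not tested.

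**Figure D4:**
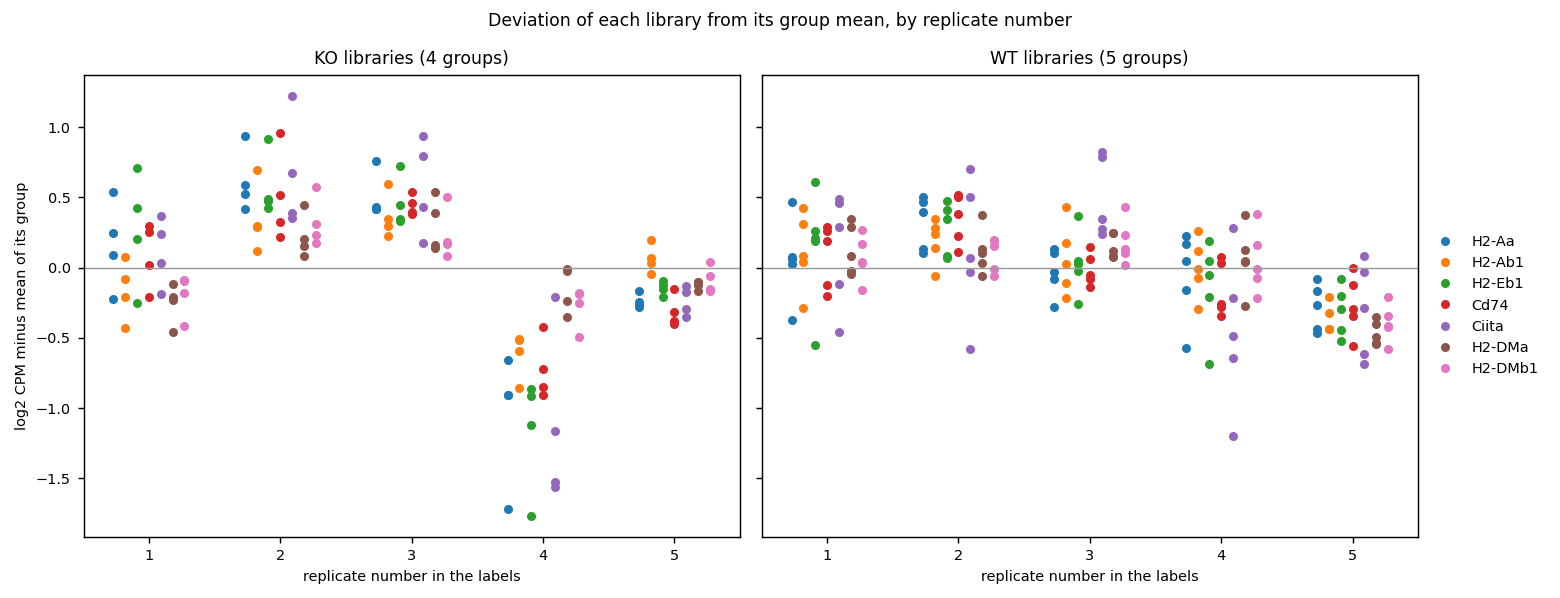
Deviation of each library from its group mean (log2 CPM, y axis) by replicate number (x axis), KO groups left and WT groups right, with colour for gene. KO replicate 4 lies below 0 in all 28 values, with a median of -0.69.

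The chains and Cd74 moved together from library to library. Pairwise Pearson r of H2-Aa, H2-Ab1, H2-Eb1 and Cd74 ran from 0.687 to 0.975 over 45 libraries, and from 0.819 to 0.978 with group means taken off. Without KO replicate 4 the last range was 0.706 to 0.955. H2-DMa correlated with these 4 genes at -0.06 to 0.172 over 45 libraries and at 0.549 to 0.767 within groups. Libraries share depth, genotype and treatment, so these values are a description.

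The 8 genes outside the pathway core whose log2 CPM was most like the mean of the 7 genes, of 6528 with enough counts, were Cst3 with r of 0.882 over 45 libraries, Cacnb3 (0.815), Ccl17 (0.755), Myo1g (0.738), Irf8 (0.731), Il4i1 (0.727), Socs2 (0.721) and Irf4 (0.716). Cst3 encodes cystatin C, an inhibitor of the endosomal cathepsins, and Ccl17 a chemokine that draws T cells. With group means taken off, 2 of these 8 stayed among the 8 most alike, with Cst3 still first at 0.901. Without KO replicate 4 the r was 0.871 for Cst3, 0.731 for Cacnb3, 0.745 for Ccl17 and 0.638 for Myo1g. It was 0.574 for Irf8, 0.631 for Il4i1, 0.639 for Socs2 and 0.651 for Irf4.

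The wider pathway gives the frame for these values. Of the inducers and repressors of Ciita, receptors, kinases and transcription factors of the interferon-gamma route among them, 4 of 9 tested rose and 1 fell in WT LPS against WT medium, with Jak2 at 185.5 CPM in LPS and 42.4 CPM in medium and Irf1 at 350.5 CPM in LPS and 104 CPM in medium. The median log2 fold change of the 9 was 0.73, beside -0.07 over all genes, of which 40.1% were called. In WT Rapamycin against WT LPS 6 of the 9 fell and 1 rose (median -0.68, beside 0.08 over all genes), where 56.3% of all genes were called. Irf1, a transcription factor of that route, averaged 70.1 CPM in Rapamycin and 350.5 CPM in LPS (log2 fold change -2.32, edgeR adjusted p = 1.2e-16), and Ifngr1, a receptor chain, rose to 124.1 CPM in Rapamycin, against 46.7 CPM in LPS.

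The factors of the X and Y boxes were called no more often than other genes after Rapamycin. Nfyb, an NF-Y subunit, averaged 13 CPM in WT Rapamycin and 39.3 CPM in WT LPS (log2 fold change -1.57), and 3 of 6 tested factors fell there with 0 rising, where 56.3% of all genes were called. Rfx5, an RFX subunit, was higher in KO than in WT cells in medium, at 5.29 CPM in KO and 2.33 CPM in WT (log2 fold change 1.18, edgeR adjusted p = 0.022), and after LPS, at 10.1 CPM in KO and 4.75 CPM in WT (1.16, edgeR adjusted p = 0.023). It was the 1 of 6 factors called in each, where 8.92% of all genes were called in medium and 6.06% after LPS. These Rfx5 means lay below the lowest group mean of Ciita, 13.9 CPM in WT Rapamycin, so they rest on few reads. With the edge code as a term Rfx5 did not pass in medium (0.55, edgeR adjusted p = 0.75) or after LPS (0.63, edgeR adjusted p = 0.49). Without KO replicate 4 it did not pass in medium (1.09, edgeR adjusted p = 0.07) but did after LPS (1.19, edgeR adjusted p = 0.038). Its response to 4PBA differed between genotypes by -1.999 on the log2 scale (edgeR adjusted p = 0.0029), and by -1.38 with the edge code as a term (edgeR adjusted p = 0.29). Without KO replicate 4 that difference was -1.86 (edgeR adjusted p = 0.019).

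Of 10 listed genes of endosomal proteolysis, which are 9 enzymes and the inhibitor gene Cst3, 8 fell in WT 4PBA against WT LPS, Cst3 among them, where 27% of all genes were called. In KO 4PBA against KO LPS 7 fell, without Cst3, where 24.4% of all genes were called, and 0 rose in either comparison (medians -0.51 and -0.46, beside 0.02 and 0.03 over all genes). Ctsb, a cathepsin, averaged 4330 CPM in WT 4PBA and 7075 CPM in WT LPS, and Ctsd averaged 7878 CPM in KO 4PBA and 13920 CPM in KO LPS. In WT Rapamycin against WT LPS 5 of 10 fell, a share no higher than the 56.3% of all genes called there, and 1 of them was Sppl2a, the protease that clears the last stub of the invariant chain, at 131.6 CPM in Rapamycin and 440.8 CPM in LPS (log2 fold change -1.74). Of 6 tested genes of class II surface turnover and Cd74 partners, 2 fell and 1 rose in WT Rapamycin against WT LPS, where 56.3% of all genes were called. Among them March1, a ligase that tags class II for removal, fell in WT Rapamycin to 116.2 CPM, against 194.6 CPM in LPS, and March8 rose to 20.8 CPM, against 8.54 CPM in LPS. March8 was also higher in KO than in WT medium, at 22.5 CPM in KO and 9.42 CPM in WT (log2 fold change 1.25, edgeR adjusted p = 9.4e-05), but with the edge code as a term it was 0.57 (edgeR adjusted p = 0.48). It was the 1 of 6 called there, where 8.92% of all genes were. In the accessory chains, H2-Ob fell in Rapamycin to 7.07 CPM, against 17.2 CPM in LPS, as 1 of 3 tested where 56.3% of all genes were called.

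Of 5 tested dendritic cell markers 0 were called in WT Rapamycin against WT medium, where 23.2% of all genes were. Against WT LPS 2 fell, where 56.3% of all genes were called. The summed level of all 7 ran from 153.4 to 469.4 TPM in WT Rapamycin, 382.7 to 574.9 TPM in WT LPS and 252.1 to 423.9 TPM in WT medium, and the macrophage and monocyte sum from 5250 to 5901 TPM in WT Rapamycin, 6001 to 7389 TPM in WT LPS and 5598 to 7101 TPM in WT medium. Of the 9 macrophage and monocyte markers 4 rose and 3 fell in Rapamycin against LPS, beside 56.3% of all genes called. Against medium 1 rose and 3 fell, beside 23.2% of all genes. Their part in the class II differences was not tested.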

How the data were processed

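Values came from gene-level files, 1 per library, made with RSEM from reads converted by bcl2fastq, per the submitters' processing notes. For aligner, genome build and annotation, nothing is stated (not given in the sources used here). The expected counts were deposited by the authors as RSEM estimates not normalized, per the file headers; fractional values made up 9.09%. The TPM values were scaled by the authors' RSEM run per library, per the file headers. Counts were rounded and scaled by TMM, and 10287 genes kept by filterByExpr were tested with edgeR 4.0.16 (limma 3.58.1, R 4.3.3) by a robust two-sided quasi-likelihood F test in 1 fit over the 9 groups (45 libraries, residual degrees of freedom 36, common dispersion 0.037). A gene was called at an adjusted p under 0.05 (Benjamini-Hochberg, over all genes of that comparison). Intervals are 95% intervals from the SE of the fit. Precision is limited by depth, 1509219 to 4737736 counts per library. DESeq2 1.42.0 was an alternative, and the others were RLE factors, no filter, a block for replicate number, the edge code as a term, the groups compared alone and each library left out. Fitting without KO replicate 4, scaling by library totals and the block with the edge code were chosen after seeing the data.

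The 7 genes and all lists were chosen with earlier results of these data known. By rule, the genes named were the 7 genes, Bag6, called genes of the lists (up to 3 of lowest adjusted p per list, direction and comparison), and the 8 most alike genes (mean CPM 10 or more). Cell type markers, relatives of the class II genes, genes with the promoter motifs, Rnf5 and the genes read in KO replicate 4 were named outside that rule. Replicate numbers were taken to pair libraries where deviations from group means correlated in every same-numbered pair, over 2000 abundant genes, at r above 0.1. The labels do not say what a number shares, so pairing comes from the data alone. It held in 7 comparisons: 4PBA against medium and against LPS in both genotypes, and in KO cells LPS against medium and 4µ8C against medium and LPS, with correlations from 0.195 to 0.698. The tests were checked on simulated data. H2-DMb1 shares transcript sequence with H2-DMb2 in GENCODE M21. Of the listed genes, 2 are not reported here by name.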

Additional observations from a re-analysis of the deposited data

Results flagged for a closer look

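Of 63 groups of 5 values, each 1 gene in 1 group, 1 had a library far from the others: H2-DMb1 in WT Rapamycin, where replicate 3 read 116.16 CPM and the other 4 read 74.3 to 85.58 CPM. The gap to the nearest library was 0.73 of the whole range, above the critical value of 0.71. Chance flags about 1 in 20 groups, so 1 of 63 is no pattern.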

How the results depend on the processing

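Of 133 values (7 genes in 19 comparisons), all 133 kept their direction where called and their side of the threshold under RLE factors and under DESeq2, and no called value changed sign under any alternative run. Without the filter on low counts 1 call was lost, H2-Ab1 in WT 4PBA against WT LPS (0 of 7 called). With the edge code as a term 3 calls were lost, leaving 0 of 7 in KO against WT medium and 0 in WT 4PBA against WT LPS, and H2-Aa no longer passed in Rapamycin against LPS (-0.73, edgeR adjusted p = 0.083). Without KO replicate 4 the call in KO against WT medium went to 0. Scaling by library totals gave 2 of 7 called in WT LPS, WT 4µ8C and WT Rapamycin against medium, 2 in KO LPS and 1 in KO 4µ8C against medium, 2 in Rapamycin against LPS and 1 in KO 4PBA against KO LPS. Fits of the groups compared alone called 4 in WT LPS and 5 in WT Rapamycin against medium. The cause of these changes was not tested.

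With a replicate block, the pairing held for 7 comparisons given above. In the others at least 1 same-numbered correlation was 0.1 or less, so the numbers were not taken to pair the libraries (in WT LPS against medium 4 of 5 were above it): there the block called 1 of 7 in KO against WT LPS (Ciita, -1.14), 2 in WT LPS against medium (H2-Ab1 at 0.48, edgeR adjusted p = 0.002, and H2-DMa), 2 in WT 4µ8C against medium and 5 in WT Rapamycin against medium, and Cd74 in Rapamycin against LPS. Against medium it called 1 of 7 for KO LPS, for 4PBA in both genotypes and for KO 4µ8C, and 5 in WT 4PBA against LPS, and changed no other call. The block with the edge code, chosen after seeing the data, called 1 of 7 in WT 4PBA against medium and 3 against LPS, with 1745 genes in all against LPS.

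Counts over all genes moved by more than 1.5 times in these fits. With the block they were 175 in KO against WT 4µ8C, 115 in 4PBA, 13 in KO 4µ8C against LPS and 28 in the difference of LPS responses (98, 51, 3 and 1 in the fit reported). With the edge code they were 68 in KO against WT medium, 161 in LPS, 148 in 4PBA, 2790 in WT 4PBA against medium, 1526 in WT 4PBA against LPS, 0 in WT 4µ8C against LPS, and 0 and 126 in the differences of 4µ8C and 4PBA responses (918, 623, 51, 4495, 2781, 21, 184 and 487). Without KO replicate 4 they were 56 in KO against WT 4µ8C, 28 in 4PBA, 0 in KO 4µ8C against LPS and 77 in the difference of 4µ8C responses. Library totals gave 5531 in KO LPS against medium, 3875 in KO 4PBA against LPS, 1 in WT and 0 in KO 4µ8C against LPS, and 87 in the difference of 4µ8C responses. The groups alone gave 19 in KO against WT 4µ8C, 198 in 4PBA, 11 in WT and 0 in KO 4µ8C against LPS and 0 in the difference of LPS responses. DESeq2 gave 177, 87, 68, 11 and 11 in those 5. Without the filter there were 13 in WT and 1 in KO 4µ8C against LPS.

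Leaving out 1 library moved the calls among the 7 genes between 0 and 1 in KO against WT medium and LPS, WT LPS, WT 4µ8C and KO 4µ8C against medium, and WT 4PBA against LPS. In each of the 5 calls gained, the library left out lay furthest towards the other group, so the gain came by construction. Over all genes the range was 42 to 124 in KO against WT 4µ8C, 22 to 61 in 4PBA, 1 to 57 in WT and 0 to 28 in KO 4µ8C against LPS, and 1 to 4 and 86 to 297 in the differences of LPS and 4µ8C responses. Of the 8 most alike genes 2 stayed with group means taken off. With 5 libraries a group and Ciita at 13 to 141 counts, its intervals are wider than those of the other genes given.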
